A study of Mus musculus with 9 samples.

Results

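The genes described here are 10 genes of the p53 response to DNA damage, *Trp53*, *Mdm2*, *Ccng1*, *Trp53inp1*, *Cdkn1a*, *Gadd45a*, *Sesn2*, *Phlda3*, *Bbc3* and *Eda2r*. They were chosen by symbol from the 25239 genes listed in the tables of 9 retina libraries. Of the 10, 9 passed the filter on low values and were tested together with all 15198 genes that passed it. *Eda2r* did not pass and is given by its values only.

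The libraries were bulk RNA-Seq of whole retinas from C57BL/6J mice at postnatal day 42, each made from both retinas of 1 mouse. They came from 3 +/+ mice, 3 Rbpms-CreERT2/+ mice (Cre/+) and 3 Rbpms-CreERT2/CreERT2 mice (Cre/Cre), with the +/+ mice taken from the same litters. The knock-in allele places a P2A-CreERT2 cassette in frame at the C-terminus of *Rbpms*, so CreERT2 is made wherever *Rbpms* is transcribed, in the retina the ganglion cells. In the methods, the line goes back to a genome-edited founder crossed with C57BL/6J. Whether the sequenced mice were given tamoxifen is not given in the sources used here. The comparison asks whether retinas that carry the recombinase differ from +/+ retinas in the transcripts of a DNA damage response.

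The p53 protein is a transcription factor that is made at all times and kept low by the ubiquitin ligase MDM2. After DNA breaks, the kinases ATM and CHK2 release p53 from MDM2, and p53 then binds near the genes of cell cycle inhibitors, repair factors, death genes and its own inhibitors. Since this control acts on the protein, the level of *Trp53* RNA is no measure of p53 activity, and the target transcripts are the usual readout. Cre recombinase can cut at sequences that resemble its own sites, and CreERT2 is held outside the nucleus until it binds a ligand such as 4-hydroxytamoxifen.

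p53 binds a site made of a pair of adjoining 10-base repeats, and the 300-base windows around the start sites of the genes (250 bases before the start to 50 after it, RefSeq sequence of GRCm38.p6) were searched for the best match to the 20 letters of this consensus, which reads alike on both strands. A window was at hand for 9 of the 10 genes and not for *Trp53inp1*. The matches shown are those of *Cdkn1a* and *Ccng1*, which had the most letters, and of *Bbc3*, which had the largest log2 fold change of the 9 tested genes against +/+ in size and did not pass the adjusted limit. The 20 matched bases are in capitals, with 15 bases on either side, on the strand of the gene.
Cdkn1a: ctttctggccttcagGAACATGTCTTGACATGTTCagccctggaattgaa
Ccng1: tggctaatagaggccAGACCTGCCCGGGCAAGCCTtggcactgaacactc
Bbc3: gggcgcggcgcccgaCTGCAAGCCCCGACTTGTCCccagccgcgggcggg

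The capitals of *Cdkn1a* lie on the plus strand at chr17:29090928-29090947, 51 to 32 bases before the start, and match 19 of the 20 letters. Those of *Ccng1* lie on the minus strand at chr11:40755462-40755481, 195 to 176 bases before the start, and also match 19. Of the 32851 windows of all genes, 0.0883% held a match of 19 or more letters. Those of *Bbc3* lie on the plus strand at chr7:16309486-16309505, 97 to 78 bases before the start, and match 17. *Trp53* and *Gadd45a* likewise had a best match of 17 letters, which 6.29% of all windows reached. *Mdm2*, *Phlda3* and *Sesn2* had 15 and *Eda2r* had 14, and 76.6% and 98.5% of all windows had at least as many. *Cdkn1a* and *Bbc3* also had windows at other start sites, and the match shown for each is from its window with the most letters. In the other windows the best match was 15 letters for *Cdkn1a* and 15 and 14 for *Bbc3*. A match describes the letters only, and a window without one says nothing of p53 binding elsewhere in the gene.

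Levels are in TPM, a measure per length of the transcript with the same sum in every library, so that levels of different genes can be set side by side. In the +/+ retinas *Ccng1* had the highest level at 83.6 ± 10.6 TPM (SD, n = 3), followed by *Mdm2* at 75.2 ± 1.02 and *Gadd45a* at 66.7 ± 9.71 TPM. The values of neighbours in this order overlapped between libraries. *Trp53inp1* was next at 28.5 ± 1.83 TPM and did not overlap with its neighbours. *Trp53* at 23.9 ± 2.11 and *Sesn2* at 20.9 ± 1.80 TPM overlapped. *Phlda3* at 8.41 ± 2.96, *Cdkn1a* at 6.99 ± 1.56 and *Bbc3* at 6.67 ± 1.41 TPM overlapped as well. The transcripts of the p53 inhibitor MDM2 and of cyclin G1 were thus about as abundant as *Gadd45a* RNA, and those of the cell cycle inhibitor p21 and of the death gene *Bbc3* were among the least abundant of those tested.

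**Figure D1:**
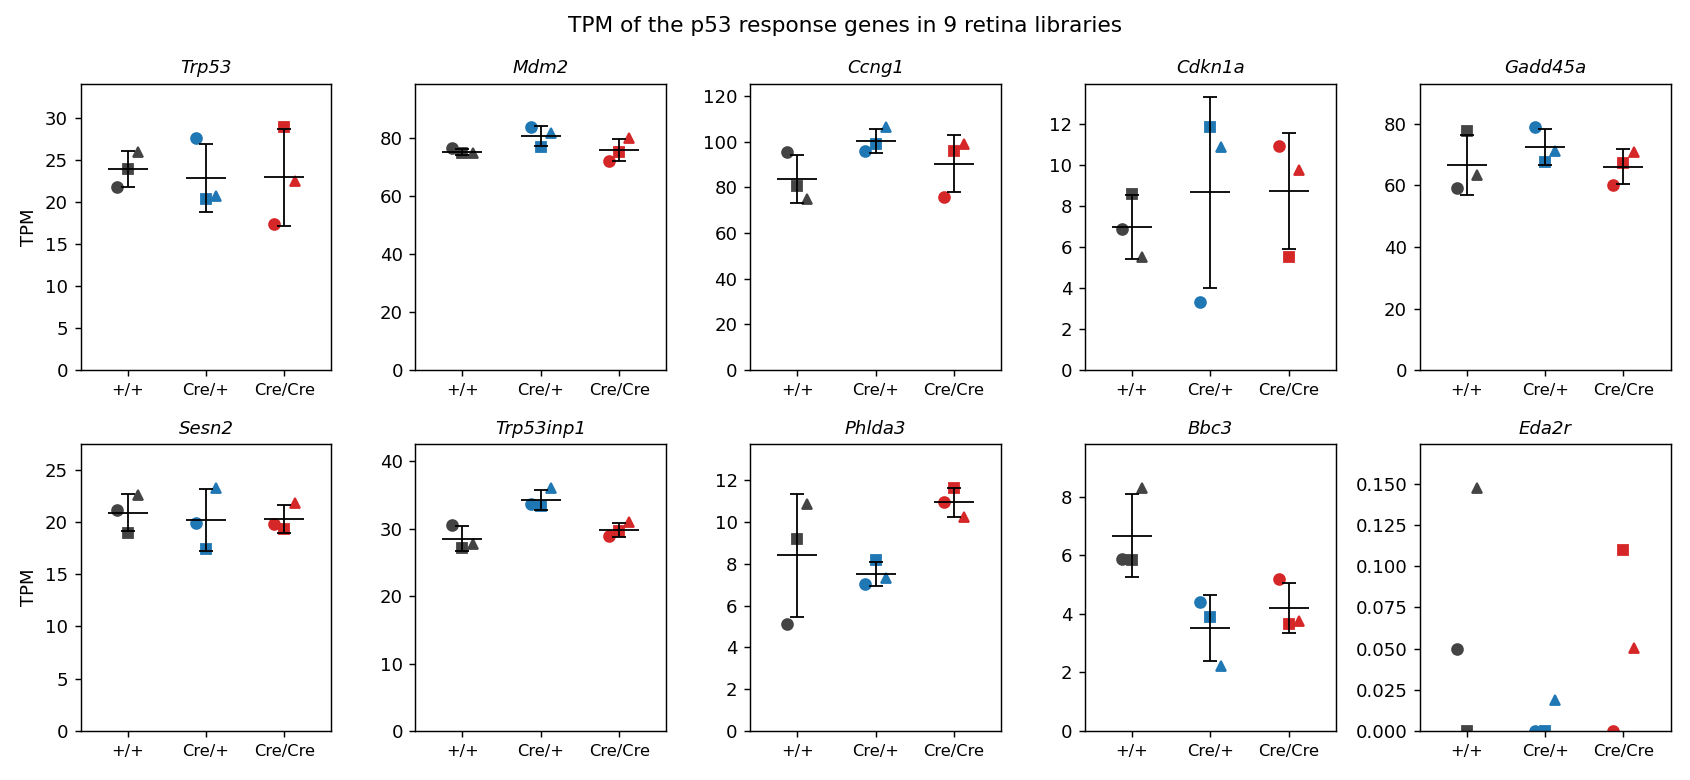
Level of each p53 response gene in TPM (vertical axis, from 0, scaled per gene) in the +/+, Cre/+ and Cre/Cre libraries (horizontal axis), with circles, squares and triangles for replicates 1, 2 and 3. Horizontal bars with whiskers are the mean ± SD of 3 libraries, left out for *Eda2r*, which was listed at 0 in several libraries. All 6 knock-in libraries had less *Bbc3* than the +/+ libraries, and *Cdkn1a* ranged from 3.32 to 11.8 TPM within Cre/+ alone.

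The precision of these levels rests on the spread between libraries, since no read counts were used here. The depth, read from the ratio of coverage to FPKM, was 4.05 to 4.65 aligned gigabases per library. The mean coverage of a base of the gene was 79.0 to 112 reads for *Mdm2*, 2.68 to 9.95 for *Bbc3* and 1.30 to 4.14 for *Cdkn1a*. Around the genotype means, the standard deviation of log2(TPM + 1) was 0.06 for *Mdm2* and 0.07 for *Trp53inp1*, among the smallest of all genes tested (percentiles 2.65 and 6.67, median gene 0.13). It was 0.60 for *Cdkn1a*, 0.30 for *Bbc3*, 0.30 for *Phlda3* and 0.25 for *Trp53* (percentiles 97.6, 89.9, 89.7 and 85.6). The members therefore differed in how small a difference could be seen, *Mdm2* and *Trp53inp1* being the sharpest readouts and *Cdkn1a* the least sharp. For *Cdkn1a* the deposited coverage was 0.291 of what its FPKM gives by the ratio common to most genes, and this factor was the same in all 9 libraries to 3 digits. Its comparison between libraries is not touched by this, but its rank among the genes depends on the scale.

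The libraries differed in other ways than by genotype. Ribosomal precursor RNA (*Rn45s*) made up 9.21% of the TPM of Cre/Cre replicate 1 and 0.0827% to 0.336% elsewhere, and the median of all tested genes in that library lay 0.13 below the +/+ mean on the log2 scale. *Xist*, the RNA that coats an inactive X chromosome, was at 2.08 to 3.16 TPM in Cre/+ replicate 3 and in Cre/Cre replicates 1 and 3, against 516 to 585 TPM in the other 6, among them all of +/+. *Rbpms*, the gene that carries the cassette, had a mean level of 41.7 ± 2.85 TPM in the +/+ libraries, 32.2 ± 0.888 TPM with 1 knock-in allele and 21.0 ± 2.80 TPM with 2 (SD, n = 3 each). This difference passed the adjusted limit of limma in Cre/Cre (log2 fold change -0.96, adjusted p = 0.000581) and not in Cre/+ (-0.36, adjusted p = 0.355). The ganglion cell markers *Thy1* (343, 316 and 278 TPM) and *Sncg* (275, 237 and 204 TPM) had means in the same order of genotypes. *Pou4f1* (23.0, 23.6 and 19.4 TPM) and *Nefl* (558, 566 and 477 TPM) had their highest mean in Cre/+ and their lowest in Cre/Cre. The part of these markers in the values of *Rbpms* was not tested. By immunostaining, the study found no significant difference between genotypes in the number of RBPMS-positive and POU4F1-positive cells, and a similar RBPMS signal. With DESeq2 on counts, it reported no gene past its limits on fold change and adjusted p in either knock-in genotype. The markers of photoreceptors and Müller glia were present in every library, as were those of ganglion cells, and *Mki67* and *Ccnb1* of dividing cells fell below the filter.

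No p53 response gene differed between genotypes after adjustment. In limma, with the 9 libraries in 1 model of log2(TPM + 1) and Benjamini-Hochberg adjustment over all tested genes, 0 of the 9 genes passed an adjusted p of 0.05 in Cre/+ against +/+ and 0 in Cre/Cre against +/+. The share of all genes that did was 0.00658% in Cre/+ and 0.00658% in Cre/Cre, 1 gene in each. At an unadjusted p under 0.05 there were 3 of 9 in Cre/+, *Ccng1* and *Trp53inp1* higher and *Bbc3* lower, where 10.7% of all tested genes were (4.90% higher, 5.82% lower). In Cre/Cre there was 1 of 9, *Bbc3*, lower, where 6.97% of all tested genes were (5.39% lower). The counts at the adjusted limit were 0 in limma without the robust prior as well. The median log2 fold change of the 9 genes was 0.10 in Cre/+ and 0.01 in Cre/Cre, and that of all tested genes was 0.00 and -0.02. The first of these medians was -0.01 without Cre/+ replicate 3, and the second was 0.09 without Cre/Cre replicate 1. Both comparisons use the same +/+ libraries and are not independent of each other. From the RNA of whole tissue alone, fewer cells of a type and less RNA per cell cannot be told apart. A difference held in the few cells that transcribe *Rbpms* is averaged with the RNA of all others.

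**Figure D2:**
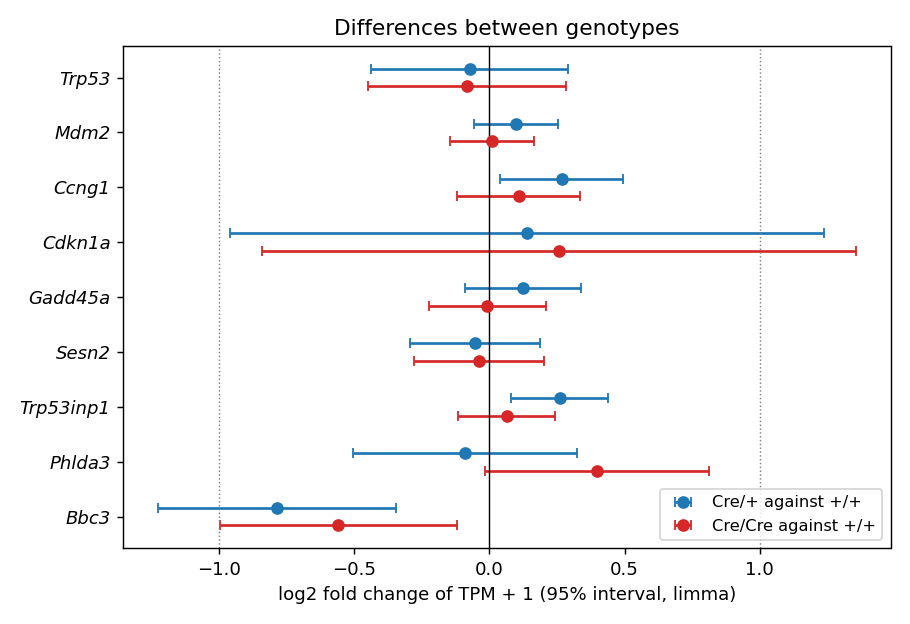
Log2 fold change of TPM + 1 (horizontal axis) of 9 p53 response genes in Cre/+ and in Cre/Cre against +/+, with limma's 95% intervals as whiskers. Dotted lines mark -1 and 1. The intervals of *Mdm2* are the narrowest and those of *Cdkn1a* the widest, and *Bbc3* lies left of 0 in both comparisons.

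The p53 gene itself was at 21.8, 24.0 and 26.0 TPM in +/+, at 27.6, 20.3 and 20.7 in Cre/+ and at 17.4, 28.9 and 22.5 in Cre/Cre. The genotypes overlapped, and the lowest and the highest value were both in Cre/Cre. *Trp53* (plus strand of chromosome 11, 69580359 to 69591873, mm10) had a log2 fold change of -0.07 (95% interval -0.44 to 0.29) in Cre/+ and -0.08 (-0.45 to 0.28) in Cre/Cre.

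*Mdm2* encodes the ligase that degrades p53 and is itself a p53 target, so that it forms the central negative feedback of the pathway. It had 76.4, 74.6 and 74.7 TPM in +/+, 83.6, 77.0 and 81.5 in Cre/+ and 72.2, 75.2 and 79.9 in Cre/Cre. All Cre/+ libraries lay above all +/+ libraries, the closest by less than 1 TPM, and Cre/Cre overlapped with both. The log2 fold change was 0.10 in Cre/+ (SE 0.07, 95% interval -0.06 to 0.25, adjusted p = 0.617 in limma) and 0.01 in Cre/Cre (-0.15 to 0.16, adjusted p = 0.993). It had the narrowest interval of the 9 genes.

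*Ccng1* encodes cyclin G1, a p53 target that acts with a phosphatase on MDM2. Its values were 95.4, 80.7 and 74.8 TPM in +/+, 96.0, 99.1 and 106 in Cre/+ and 76.0, 96.0 and 99.1 in Cre/Cre. The Cre/+ libraries lay above the +/+ libraries, by less than 1 TPM at the closest pair, and Cre/Cre spanned both. The log2 fold change was 0.27 in Cre/+ (SE 0.11, unadjusted p = 0.0245, adjusted p = 0.410 in limma) and 0.11 in Cre/Cre (95% interval -0.12 to 0.34). The latter was 0.23 without Cre/Cre replicate 1 (unadjusted p = 0.0300, adjusted p = 0.484) and 0.03 without +/+ replicate 3.

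*Trp53inp1* encodes a stress protein that p53 induces and that in turn promotes p53 activity. It had 30.6, 27.2 and 27.8 TPM in +/+, 33.6, 33.3 and 36.0 in Cre/+ and 28.9, 29.7 and 30.9 in Cre/Cre. The Cre/+ libraries lay above those of both other genotypes, and Cre/Cre overlapped with +/+. The log2 fold change in Cre/+ was 0.26 (SE 0.08, 95% interval 0.08 to 0.44, unadjusted p = 0.00716, adjusted p = 0.377 in limma), and in Cre/Cre it was 0.06 (-0.11 to 0.24). Against Cre/+, Cre/Cre was at -0.20 (unadjusted p = 0.0339, adjusted p = 0.740). The 3 genes whose Cre/+ libraries all lay above +/+ were *Mdm2*, *Ccng1* and *Trp53inp1*. With *Bbc3*, which lay below, this made 4 of 9 genes without overlap in Cre/+, against 22.2% of all tested genes (11.9% higher, 10.3% lower). In Cre/Cre, 0 of 9 genes lay above +/+ without overlap, as did 2.70% of all tested genes.

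*Cdkn1a* encodes p21, the cyclin-dependent kinase inhibitor that halts the cell cycle after DNA damage and the most used marker of p53 activity. Its values were 6.87, 8.60 and 5.49 TPM in +/+, 3.32, 11.8 and 10.9 in Cre/+ and 10.9, 5.52 and 9.74 in Cre/Cre. The genotypes overlapped, Cre/+ held both the lowest and the highest value, and the 4 highest values were in knock-in libraries. Its log2 fold change was 0.14 in Cre/+ (95% interval -0.96 to 1.24, adjusted p = 0.934 in limma) and 0.26 in Cre/Cre (-0.84 to 1.35, adjusted p = 0.966). A 2-fold rise (1 on the log2 scale) was inside both intervals, so that a rise of this size was not excluded at this spread. A 2-fold fall (-1) lay just outside both, on a scale that understates the change of low genes. The libraries of low *Xist* were at 10.9, 10.9 and 9.74 TPM of *Cdkn1a*. Without these 3 libraries its log2 fold change was -0.08 in Cre/+ and -0.27 in Cre/Cre, with 2 and 1 knock-in libraries left.

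*Gadd45a* encodes a stress sensor that binds PCNA and CDK1 and takes part in repair and in arrest. It had 59.3, 77.7 and 63.3 TPM in +/+, 78.9, 67.6 and 71.2 in Cre/+ and 60.0, 67.4 and 70.9 in Cre/Cre. The genotypes overlapped. The difference on the log2 scale was 0.13 in Cre/+ (95% interval -0.09 to 0.34) and -0.01 in Cre/Cre (-0.22 to 0.21). The former was 0.05 without +/+ replicate 1 and 0.24 without +/+ replicate 2 (unadjusted p = 0.0311, adjusted p = 0.646). *Gadd45a* (minus strand of chromosome 6, 67035096 to 67037407) shares 809 bases with *E230016M11Rik* on the opposite strand, which was listed at a mean of 21.5 TPM. The libraries were strand-specific, but the strand setting of the quantification is not given in the sources used here.

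*Sesn2* encodes sestrin 2, an antioxidant protein that restrains mTORC1 under stress. Its values were 21.1, 19.0 and 22.5 TPM in +/+, 19.9, 17.4 and 23.2 in Cre/+ and 19.8, 19.3 and 21.8 in Cre/Cre. The groups overlapped, with Cre/+ holding the lowest and the highest library. On the log2 scale the difference was -0.05 in Cre/+ (95% interval -0.29 to 0.19) and -0.04 in Cre/Cre (-0.28 to 0.20).

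*Phlda3* encodes a pleckstrin homology protein that p53 induces and that competes with AKT for membrane lipids. It had 5.14, 9.21 and 10.9 TPM in +/+, 7.05, 8.18 and 7.34 in Cre/+ and 11.0, 11.6 and 10.2 in Cre/Cre. The Cre/Cre libraries lay above all of Cre/+, while +/+ spanned from below the Cre/+ values to within the Cre/Cre values. Its log2 fold change was -0.09 in Cre/+ (95% interval -0.51 to 0.32) and 0.40 in Cre/Cre (-0.02 to 0.81, unadjusted p = 0.0589, adjusted p = 0.743 in limma). Between Cre/Cre and Cre/+ it was 0.49 (unadjusted p = 0.0240, adjusted p = 0.740). The low value of +/+ replicate 1 weighed on the comparison, since without it the log2 fold change in Cre/Cre was 0.12 and that in Cre/+ was -0.37.

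**Figure D3:**
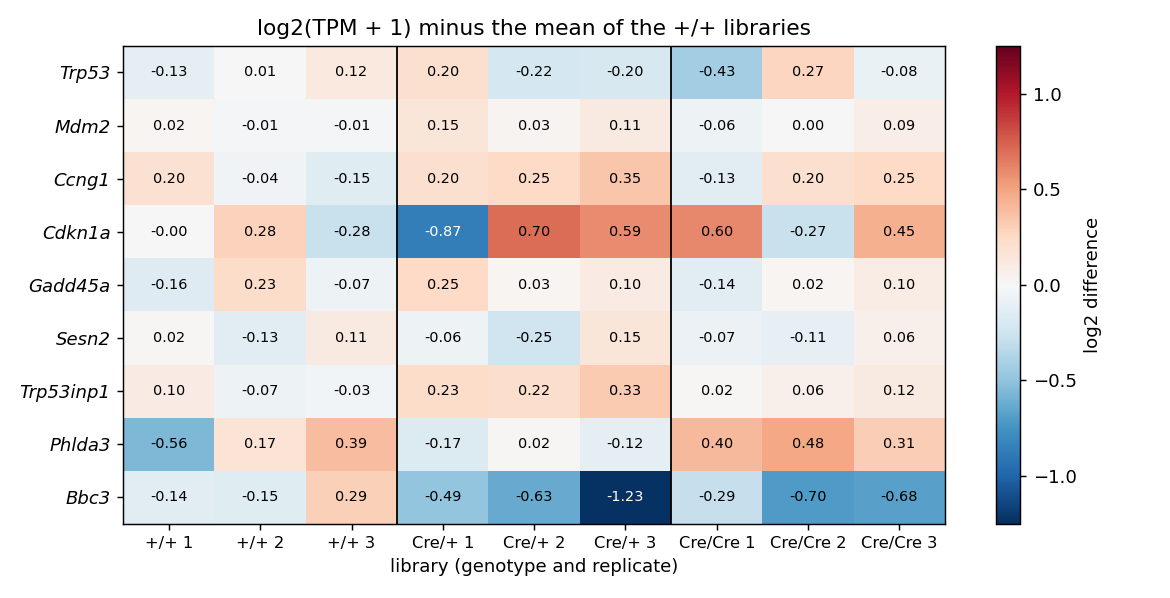
Difference of log2(TPM + 1) from the mean of the 3 +/+ libraries for 9 p53 response genes (rows) in each library (columns), with red above and blue below the +/+ mean. The row of *Bbc3* is below the mean in all 6 knock-in libraries, from -0.29 to -1.23, the row of *Cdkn1a* holds both signs within each knock-in genotype, and no library is above or below the mean in every row.

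*Bbc3* encodes PUMA, a BH3-only protein by which p53 starts mitochondrial apoptosis. It lies on the plus strand of chromosome 7, 16309583 to 16318334 (mm10). Its values were 5.87, 5.83 and 8.30 TPM in +/+, 4.39, 3.89 and 2.23 in Cre/+ and 5.19, 3.66 and 3.74 in Cre/Cre. Every knock-in library lay below every +/+ library, and both knock-in genotypes overlapped with each other. The log2 fold change was -0.79 in Cre/+ (SE 0.21, 95% interval -1.22 to -0.35, unadjusted p = 0.00160, adjusted p = 0.348 in limma), the largest of the 9 genes in size. In Cre/Cre it was -0.56 (95% interval -0.997 to -0.12, unadjusted p = 0.0159, adjusted p = 0.647), with *Bbc3* the only 1 of 9 genes without overlap, where 10.8% of all tested genes had none and 8.05% lay lower. Lower in both knock-in genotypes without overlap were 551 of all tested genes, or 3.63%. The trend over the number of alleles was -0.28 per allele (unadjusted p = 0.0498, adjusted p = 0.799), 1 of 9 genes at an unadjusted p under 0.05 against 6.24% of all genes (4.82% lower). The trend was -0.17 without +/+ replicate 3 and -0.38 without Cre/Cre replicate 1, and its unadjusted p stayed under 0.05 only without that library (0.0155) or without Cre/+ replicate 3 (0.00934), among the 9 fits with a single library left out.

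The value of *Bbc3* in Cre/+ stayed between -0.94 and -0.56 under every alternative, with adjusted p between 0.144 and 0.881. It was -0.56 without Cre/+ replicate 3, the lowest library. In Cre/Cre it was -0.69 without replicate 1, the library rich in *Rn45s*, and -0.41 without +/+ replicate 3 (unadjusted p = 0.0899). The unadjusted p was also above 0.05 without Cre/Cre replicate 2 (0.0534) or 3 (0.0533) and with *Xist* as a covariate (0.114). Without the 3 libraries of low *Xist* the log2 fold change was -0.56 in Cre/+ and -0.70 in Cre/Cre. The summed markers of blood and of ganglion cells did not overlap between Cre/Cre and +/+. Those of photoreceptors, Müller glia, microglia, endothelium, smooth muscle and pericytes, pigment epithelium, lens and dividing cells did overlap. The lens sum was 63.7 to 900 TPM in Cre/Cre, 10.3 to 136 in Cre/+ and 122 to 175 in +/+. The summed TPM of 3 blood markers was 82.2 to 254 in Cre/Cre, 1.68 to 90.0 in Cre/+ and 1.47 to 51.6 in +/+. Of these markers 1, *Alas2*, was above 0 in every library, while *Hba-a1* was listed at 0 in all +/+ libraries and *Hbb-bs* in all Cre/+ libraries. Within Cre/Cre, *Hba-a1* was at 250, 0 and 166 TPM and *Hbb-bs* at 3e-06, 80.4 and 0 TPM, so that the blood sum rested on different markers in different libraries. The sum of 5 ganglion cell markers, *Rbpms* among them and all above 0 in every library, was 902 to 1070 in Cre/Cre, 1159 to 1190 in Cre/+ and 1231 to 1258 in +/+. Their part in the values of *Bbc3* was not tested.

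*Eda2r* encodes a death receptor of the TNF family that is strongly induced by p53 in many tissues. It was listed at 0.0495, 0 and 0.147 TPM in +/+, at 0, 0 and 0.0188 in Cre/+ and at 0, 0.110 and 0.0501 in Cre/Cre. Its mean coverage was at most 0.146 reads per base. These values are too low to compare, and no fold is given.

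Between Cre/Cre and Cre/+, 0 of the 9 genes passed the adjusted limit in limma, where 0.0132% of all tested genes did. At an unadjusted p under 0.05 there were 2 of 9, *Phlda3* higher and *Trp53inp1* lower in Cre/Cre, beside 6.58% of all tested genes (2.38% higher, 4.20% lower). These were also the genes whose groups did not overlap, 1 higher and 1 lower of 9, where 4.76% of all tested genes were higher and 7.23% lower without overlap. In the trend over alleles 0 of 9 passed the adjusted limit, against 0.00658% of all genes. On the scale of log2(TPM + 1), the 95% interval lay inside a 2-fold change in either direction for 7 of the 9 genes in Cre/+, the exceptions being *Cdkn1a* and *Bbc3*. In Cre/Cre it did for 8 of 9, the exception being *Cdkn1a*. *Bbc3* was inside in Cre/Cre only narrowly, with a lower end of -0.997. This scale understates the change of low genes such as *Bbc3*, so a 2-fold fall in its TPM is not set aside.

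Across the 9 libraries the 9 tested genes, *Trp53* among them, did not vary as 1 group. Of the 36 pairs of the 9 genes, 19 had a Pearson correlation of log2(TPM + 1) above 0, with a median r of 0.04. The highest values were those of *Ccng1* with *Trp53inp1* (r = 0.84, Spearman rho = 0.82), *Mdm2* with *Trp53inp1* (r = 0.80, rho = 0.92) and *Mdm2* with *Ccng1* (r = 0.74, rho = 0.73). The lowest were those of *Trp53* with *Cdkn1a* (r = -0.83, rho = -0.88), *Ccng1* with *Bbc3* (r = -0.82, rho = -0.87) and *Bbc3* with *Trp53inp1* (r = -0.79, rho = -0.65). After the genotype means were taken out, *Ccng1* with *Trp53inp1* was at r = 0.81 and *Trp53* with *Cdkn1a* at r = -0.83. The other 4 pairs were then closer to 0, *Mdm2* with *Trp53inp1* at r = 0.56, *Mdm2* with *Ccng1* at 0.58, *Ccng1* with *Bbc3* at -0.74 and *Bbc3* with *Trp53inp1* at -0.63. The values are descriptions over 9 libraries that share a scaling to the same total, and the 3 pairs at either end were picked out of 36.

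**Figure D4:**
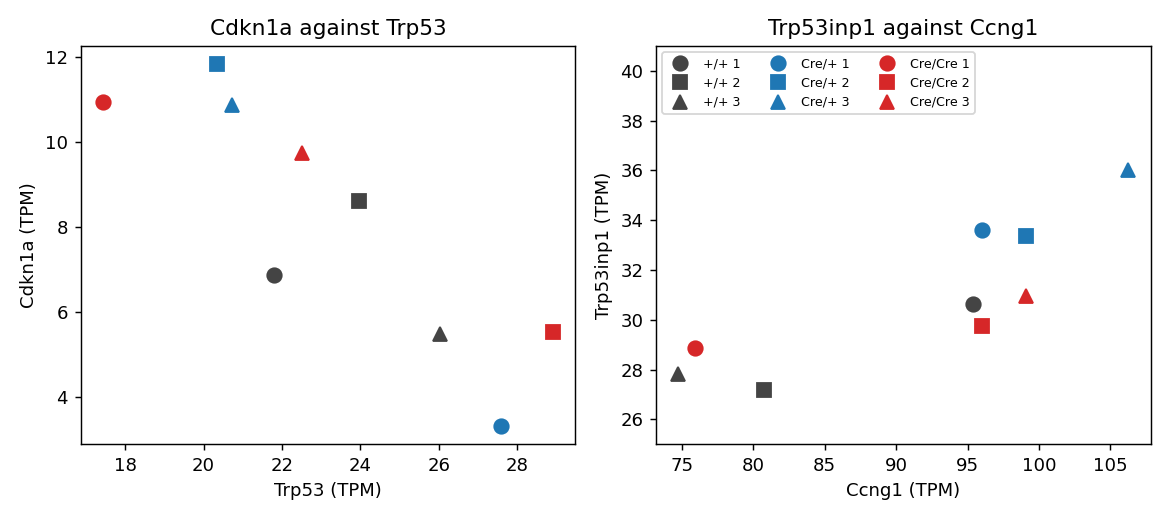
TPM of *Cdkn1a* against *Trp53* (left) and of *Trp53inp1* against *Ccng1* (right) in the 9 libraries, with grey for +/+, blue for Cre/+, red for Cre/Cre and circles, squares and triangles for replicates 1, 2 and 3. Axes do not start at 0. *Cdkn1a* is lowest where *Trp53* is at 27.6 TPM, in Cre/+ replicate 1, and *Trp53inp1* and *Ccng1* are both highest in Cre/+ replicate 3.

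The other genes of the pathway were looked at in lists. Of 27 further p53 targets 24 were tested, and 0 passed the adjusted limit of limma in either comparison. At an unadjusted p under 0.05 there were 3 in Cre/+ (2 higher, 1 lower) and 2 in Cre/Cre (1 higher, 1 lower), shares near the 10.7% and 6.97% of all tested genes. The median log2 fold changes were -0.01 and -0.02. The lower gene in Cre/+ was *Bax*, the pore-forming protein that PUMA sets free to act. It had 82.4, 81.7 and 80.9 TPM in +/+, 66.1, 62.9 and 70.4 in Cre/+ and 73.4, 79.2 and 80.6 in Cre/Cre. All knock-in libraries lay below all +/+ libraries, as they did for *Bbc3* and for 3.63% of all tested genes. The closest pair was 80.6 TPM in Cre/Cre and 80.9 in +/+ for *Bax*, and 5.19 and 5.83 for *Bbc3*. The log2 fold change of *Bax* was -0.29 in Cre/+ (unadjusted p = 0.00116, adjusted p = 0.327 in limma) and -0.07 in Cre/Cre (adjusted p = 0.913). The higher genes in Cre/+ were *Ddb2*, a sensor of ultraviolet damage (0.25, adjusted p = 0.384), and *Rrm2b*, the p53-dependent subunit of ribonucleotide reductase (0.24, adjusted p = 0.422). In Cre/Cre, *Perp*, a membrane protein of p53-dependent death, was at 0.49 and the kinase gene *Plk3* at -0.49 (adjusted p = 0.676 and 0.664), and *Dcxr* was at -0.40. Of the 24, 2 lay higher and 2 lower without overlap in Cre/+, against 11.9% and 10.3% of all tested genes. In Cre/Cre 1 lay higher and 1 lower, against 2.70% and 8.05%. *Gdf15*, *Pmaip1* and *Trp53cor1* fell below the filter, with means over 9 libraries of 0.982, 0.685 and 0.280 TPM.

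Of 12 regulators and relatives of p53, 9 were tested, and 0 had an unadjusted p under 0.05 in either comparison with +/+. Their log2 fold changes ranged from -0.08 to 0.12 in Cre/+ and from -0.09 to 0.09 in Cre/Cre. *Mdm4*, the partner of MDM2, was at 0.11 in Cre/+, the deubiquitinase gene *Usp7* at 0.12 and the acetyltransferase gene *Kat5* at -0.08. In Cre/Cre *Kat5* was at -0.09, the ligase gene *Cop1* at 0.09 and the phosphatase gene *Ppm1d*, a p53 target that ends the response, at -0.05. *Cdkn2a* was listed at 0 in all 9 libraries, and *Trp63* and *Trp73*, the relatives of *Trp53*, had means of 0.302 and 0.0573 TPM.

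All 24 genes of DNA break sensing and repair were tested, and 0 passed the adjusted limit in limma. At an unadjusted p under 0.05 there were 3 in Cre/+ (1 higher, 2 lower), a share near the 10.7% of all tested genes, and 0 in Cre/Cre, where 6.97% of all tested genes were. The medians were 0.05 and 0.04. *Rnf8*, a ubiquitin ligase that marks chromatin at breaks, had 24.1, 30.3 and 23.6 TPM in +/+, 17.7, 16.3 and 18.6 in Cre/+ and 16.8, 26.1 and 26.3 in Cre/Cre. It was low in all Cre/+ libraries and in 1 Cre/Cre library, and its difference in Cre/+ was -0.54 on the log2 scale (unadjusted p = 0.00423, adjusted p = 0.373). *H2ax*, whose product is the histone phosphorylated at breaks, was at -0.26 and *Nhej1* of end joining at 0.55 in Cre/+. In Cre/Cre *Nhej1* was at 0.44, *Nbn* of the break sensor complex at 0.19 and *Parp1* at -0.14. *H2ax* and *Parp1* lay below +/+ without overlap in both knock-in genotypes, as did 3.63% of all tested genes.

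Of 14 genes of intrinsic apoptosis, *Bax* counted again, 13 were tested, with 1 at an unadjusted p under 0.05 in Cre/+ and 0 in Cre/Cre. The shares of all tested genes were 10.7% and 6.97%. Their medians were -0.06 and -0.07, and 4 of 13 were above 0 in each comparison, where 50.4% of all tested genes were in Cre/+ and 42.3% in Cre/Cre. *Diablo*, which frees caspases from their inhibitors, was at -0.16 in Cre/+ and -0.14 in Cre/Cre. It lay below +/+ without overlap in both, as did *Bax* and 3.63% of all tested genes. *Diablo* and *Bax* were the only 2 of the 13 without overlap in each comparison. Of all tested genes, 10.3% lay lower without overlap in Cre/+ and 8.05% in Cre/Cre. *Bid* was at -0.34 in Cre/+, and *Bak1* and *Casp9* were at -0.16 and -0.11 in Cre/Cre.

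Of 11 relatives of the p53 response genes, 9 were tested, and 2 had an unadjusted p under 0.05 in each comparison, the same genes both times and both lower. Of all tested genes 5.82% were lower at this limit in Cre/+ and 5.39% in Cre/Cre, and both comparisons share the +/+ libraries. *Gadd45g* had 25.5, 28.2 and 30.1 TPM in +/+, 16.0, 24.1 and 22.6 in Cre/+ and 17.9, 20.5 and 20.7 in Cre/Cre. All knock-in libraries lay below all +/+ libraries, as for 3.63% of all tested genes, with log2 fold changes of -0.42 (adjusted p = 0.377 in limma) and -0.48 (adjusted p = 0.542). *Gadd45b* was at -0.41 in Cre/+ and -0.53 in Cre/Cre (adjusted p = 0.433 and 0.619), while *Gadd45a* of the same family was at 0.13 and -0.01. *Cdkn1b*, which encodes p27 and had 171.7 TPM over all libraries, was at 0.18 in Cre/+, and *Phlda1* was at -0.23 in Cre/Cre. Without overlap with +/+ were 3 of the 9 in Cre/+, *Cdkn1b* and *Ccng2* (0.14) higher and *Gadd45g* lower, and 2 in Cre/Cre, *Gadd45g* and *Gadd45b*, both lower. Of all tested genes, 11.9% lay higher and 10.3% lower without overlap in Cre/+, and 8.05% lay lower in Cre/Cre. The medians of the list were -0.00 and -0.09. *Phlda2* was listed at 0 in all libraries, and *Edar* had a mean of 0.0308 TPM.

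**Figure D5:**
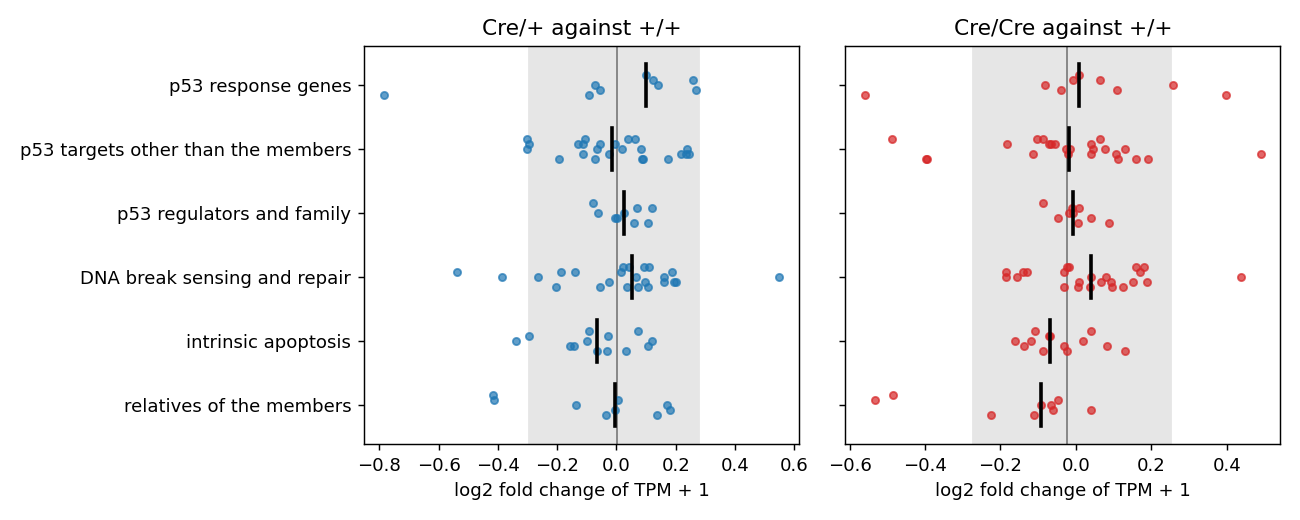
Log2 fold change of TPM + 1 (horizontal axis) in Cre/+ (left) and Cre/Cre (right) against +/+ for the p53 response genes and 5 related lists (rows), 1 point per tested gene, with a black bar at the median of the list. The grey band holds the middle of all 15198 tested genes, from the percentile 5 to 95, and the grey line their median. The medians of the lists lie between -0.09 and 0.10, and *Bbc3* is the point farthest left in either panel.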

How the data were processed

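Whole retinas of 9 mice (3 each of +/+, Cre/+ and Cre/Cre) were sequenced as strand-specific poly(A) libraries. According to the methods and the labels, the authors used Trimmomatic for trimming, HISAT2 for alignment to mm10 and StringTie for the gene values, with versions not given in the sources used here. The deposited TPM are scaled to the same total in every library, the deposited FPKM are the values before that scaling, and the deposited coverage gives the average read depth per base of a gene. Read counts were not used here, so the DESeq2 test of the study was not repeated.

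Where a gene name filled several rows, their TPM were added up, and genes with a mean of at least 1 TPM over 9 libraries were tested with limma 3.58.1 (trend, robust prior) in R 4.3.3 on log2(TPM + 1), a scale that understates the change of low genes. The model held genotype, or the number of knock-in alleles for the trend. The limit was a Benjamini-Hochberg adjusted p of 0.05. The script was tested on simulated data. Each animal gave 1 library, and each genotype mean rested on 3 libraries. The spread of a gene was estimated from all 9 libraries together and moderated by limma's prior over all tested genes.

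The genes described, the lists and the tests were chosen with earlier results of these data known. Named are the 10 genes, from each list the up to 3 genes with the smallest unadjusted p in each comparison with +/+, listed genes below the filter, and *Rbpms*, *Xist* and *Rn45s*. Genes named for groups without overlap or for a marker sum were added after their values were seen. *H2afx* was matched as *H2ax* through RefSeq synonyms. Alternatives were a pseudocount of 0.1, no filter, a replicate block, *Xist* as a covariate, no libraries of low *Xist*, only the genotypes compared, median-ratio scaling, FPKM, the highest row of a name, no robust prior and each library left out. Coverage per gigabase was added after the data were seen. Figures were drawn with matplotlib 3.10.9.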

Additional observations from a re-analysis of the deposited data

How the results depend on the processing

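The number of p53 response genes past the adjusted limit was 0 in all 4 comparisons under every alternative that was run, the replicate block included. A fit of only the genotypes compared gives no trend. No pairing of the libraries by replicate number was visible. Libraries of the same number correlated between -0.116 and 0.128 in their deviations, over 0.1 in 1 of 9 pairs, and 3 of 9 libraries correlated best with their own number. The labels do not give the litter of a library, so that a pairing by litter was not tested. With the replicate block the adjusted p of *Bbc3* in Cre/+ was 0.480. The median of the 9 genes in Cre/+ was -0.010 without the libraries of low *Xist* and ranged from -0.010 to 0.099 with single libraries left out. In Cre/Cre it ranged from -0.030 to 0.085.

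Signs turned only in log2 fold changes that did not pass the limit. In the order Cre/+, Cre/Cre, Cre/Cre against Cre/+ and trend, *Cdkn1a* turned to -0.10, -0.24, -0.14 and -0.12 with *Xist* as a covariate and to -0.083, -0.27, -0.19 and -0.13 without the libraries of low *Xist*. *Trp53* turned to 0.045, 0.16, 0.11 and 0.079 with the covariate, and without those libraries to 0.27 in Cre/Cre, 0.28 against Cre/+ and 0.10 in the trend. *Gadd45a* turned in Cre/Cre and the trend to 0.023 and 0.012 with the covariate, to 0.024 and 0.037 without those libraries and to 0.021 and 0.010 with median-ratio scaling. *Mdm2* turned in Cre/Cre to -0.00018 with the covariate, and in Cre/Cre and the trend to -0.041 and -0.020 with FPKM and to -0.037 and -0.018 with coverage per gigabase. Between Cre/Cre and Cre/+, *Sesn2* turned to -0.053 with the covariate and to -0.0093 with FPKM or coverage, *Bbc3* to -0.14 without the libraries of low *Xist*, and *Trp53* to 0.022 with median-ratio scaling. The cause was not tested.

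With single libraries left out, turning signs gave these ranges. In Cre/+ they were -0.21 to 0.0024 for *Trp53*, -0.14 to 0.65 for *Cdkn1a*, -0.37 to 0.10 for *Phlda3* and -0.16 to 0.044 for *Sesn2*. In Cre/Cre they were -0.26 to 0.092 for *Trp53*, -0.030 to 0.043 for *Mdm2*, -0.087 to 0.11 for *Gadd45a* and -0.10 to 0.016 for *Sesn2*. Between Cre/Cre and Cre/+ they were -0.18 to 0.16 for *Trp53*, -0.39 to 0.40 for *Cdkn1a* and -0.082 to 0.12 for *Sesn2*. In the trend they were -0.12 to 0.037 for *Trp53*, -0.0060 to 0.028 for *Mdm2*, -0.050 to 0.038 for *Gadd45a*, -0.046 to 0.0086 for *Sesn2* and -0.00066 to 0.060 for *Trp53inp1*.

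The number of all genes past the adjusted limit was 1 in Cre/+, 1 in Cre/Cre, 2 between them and 1 in the trend. Over the alternatives it ranged from 0 (FPKM, coverage) to 6, from 1 to 16, from 0 (coverage) to 18 and from 1 to 4, and the highest value of the first 3 was that without the libraries of low *Xist*. All libraries of low *Xist* carried a knock-in allele, so that its part and that of the genotype can be told apart only within Cre/+ and Cre/Cre.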
